A study of Mus musculus with 2 samples.

Results

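The cytochrome P450 genes of families 1 to 4 were followed through the open chromatin of the mouse embryonic limb. Members were all protein-coding genes of the GENCODE M21 annotation whose symbol is Cyp1, Cyp2, Cyp3 or Cyp4 with a subfamily letter and a number, which gave 81 of 21938 protein-coding genes. Open chromatin was measured by DNase-seq, in which the enzyme DNase I cuts accessible DNA in nuclei and peaks mark where cuts pile up. The tissue was limb from healthy B6NCrl embryos of both sexes, pooled, at 11.5 days, with 2 biological replicates and 1 technical replicate of each. The labels list separate biosamples of the same donor record, do not say whether forelimbs, hindlimbs or both were taken, and name sequencing instruments for replicate 2 only. There was a single group with no treatment and no second tissue, so no comparison between conditions and no p-value was possible, and the results are counts and peak values in each library and in both.

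Cytochrome P450 enzymes are haem proteins, most of them bound to the endoplasmic reticulum, that insert an oxygen atom into their substrates with electrons passed on by P450 reductase. Families 1 to 3 oxidise drugs, pollutants, steroids and unsaturated fatty acids, and family 4 mainly hydroxylates the far end of fatty acids and of signalling lipids made from them. Most members arose by tandem duplication and are used chiefly in liver, intestine, kidney or lung, where nuclear receptors and the aryl hydrocarbon receptor (AHR) switch many of them on.

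Replicate 1 held 174430 peaks and replicate 2 held 167369 on the named chromosomes. Of these, 69.8% and 73.1% overlapped a peak of the other library, and joining the overlapping ones gave 118491 shared peaks. Marker genes were checked against the limb label. A shared promoter peak was present in 14 of 15 limb mesenchyme genes (93.3%) and in 9 of 11 surface ectoderm genes (81.8%). It was present in 3 of 8 endothelial genes, 0 of 8 blood genes and 1 of 12 hepatocyte genes, of which Apob was the one. Over all protein-coding genes the share was 66.5%. In bulk tissue, a site open in fewer cells and a site less open in each cell cannot be told apart.

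Most P450 genes of these families had no open promoter in the limb. A shared peak centred within 1 kb of a start was found for 16 of 81 members, or 19.8%, against 66.5% of all protein-coding genes. The single libraries gave nearly the same count: 17 members had a promoter peak in replicate 1, where 68.1% of all genes had one, and 18 in replicate 2, where the share of all genes was 68.5%. Shared peaks in the gene body, over 1 kb from the gene's own starts, occurred in 17 members (21% against 47.1% of all genes). By library, 23 members had a body peak in replicate 1 and 24 in replicate 2, with 53.2% and 52.3% of all genes. Distal shared peaks, meaning those over 1 kb from every protein-coding start and nearest to a member's start within 500 kb, fell to 32 members (39.5% against 65.8%). By library, 41 members had a distal peak in replicate 1 and 45 in replicate 2, with 71.5% and 70.6% of all genes. A peak inside a gene and over 1 kb from every start was counted both as body and as distal.

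In all, members held 23 shared promoter peaks, 24 shared body peaks and 77 distal shared peaks. The single libraries held more in each class: 29 promoter, 37 body and 121 distal peaks in replicate 1, and 37, 43 and 132 in replicate 2. No shared peak of any class belonged to 44 members (54.3% against 17.2% of all genes), and 26 members had no peak of any class in either library (32.1% against 13.2%). These 26 comprised 25 genes of tandem clusters and Cyp1a2, a drug- and caffeine-metabolising enzyme of the liver.

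**Figure D1:**
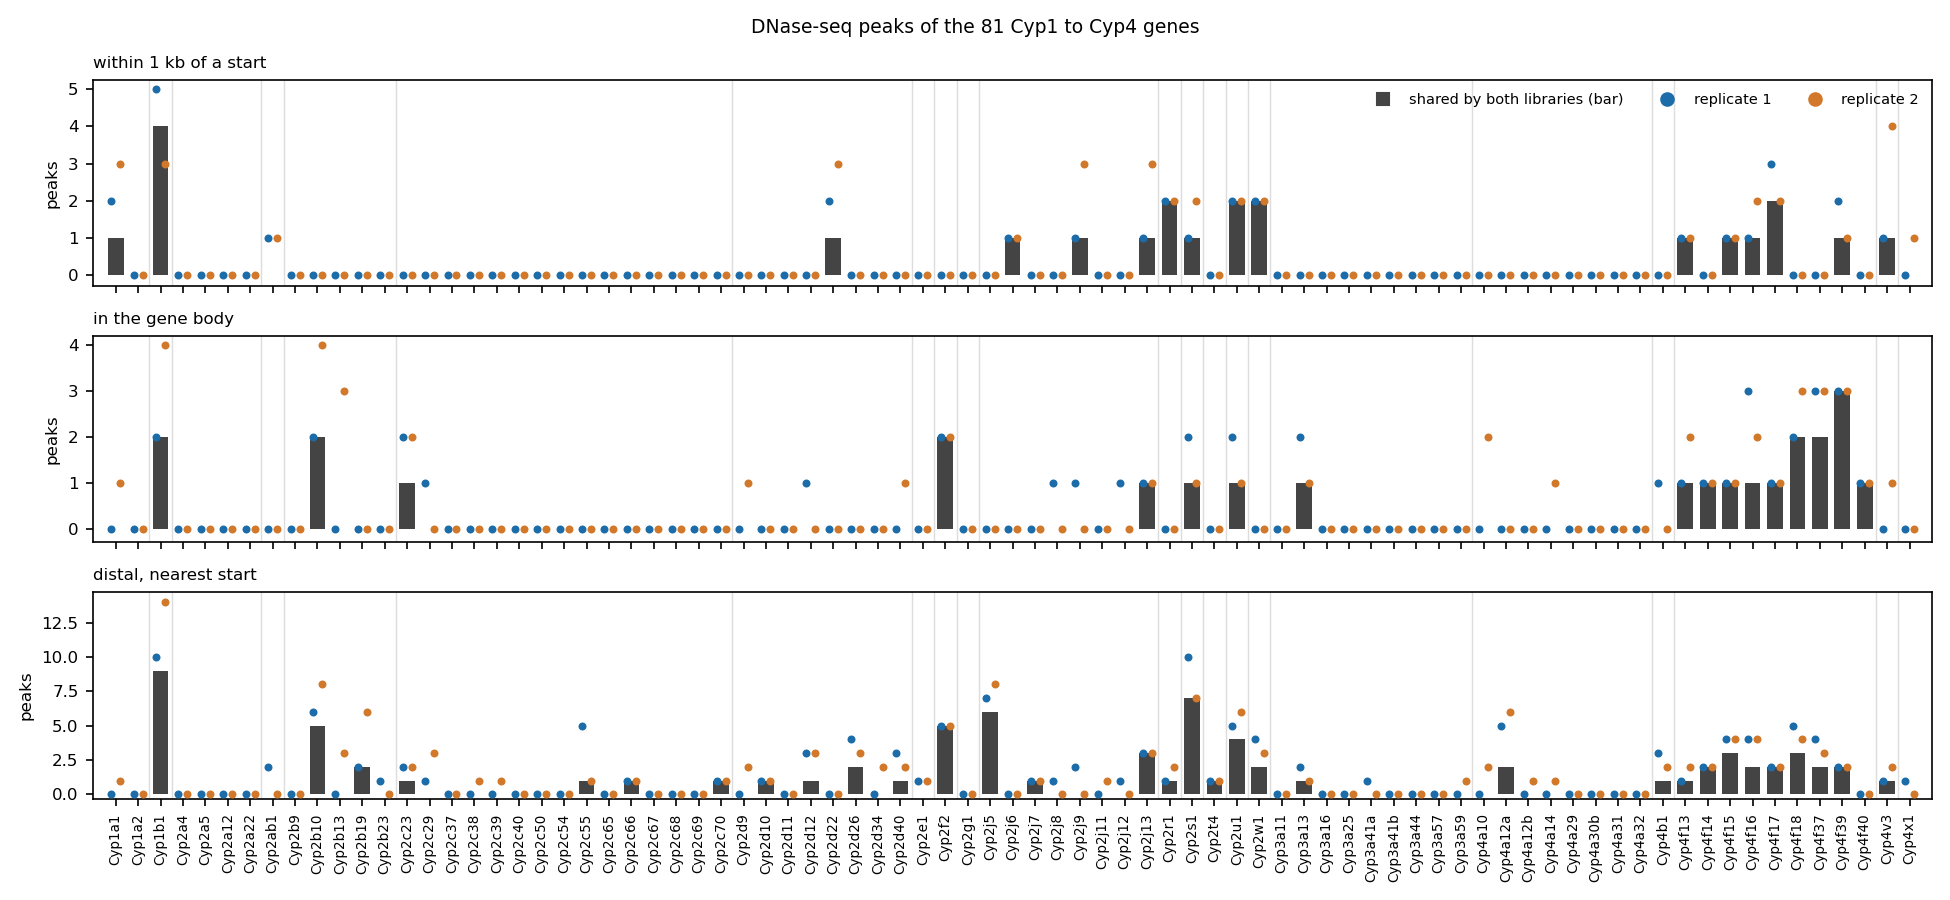
Number of DNase-seq peaks for each of the 81 members, grouped by subfamily (grey lines separate subfamilies), within 1 kb of a start (top), in the gene body (middle) and distal with the member's start as the nearest (bottom); bars count shared peaks, and points the peaks of replicate 1 and replicate 2. The Cyp2a, Cyp2c, Cyp3a and Cyp4a genes are almost empty, while all 9 Cyp4f genes carry a shared body peak.

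The 16 open promoters were spread unevenly over the families: 2 of 3 Cyp1 genes, 8 of 49 Cyp2 genes, 0 of 9 Cyp3 genes and 6 of 20 Cyp4 genes. Among the large subfamilies, none of the 15 Cyp2c, 9 Cyp3a, 8 Cyp4a, 5 Cyp2b and 4 Cyp2a genes had one. These subfamilies hold the main drug-, steroid- and fatty-acid-oxidising P450 enzymes of the adult liver. In the Cyp2j subfamily, whose products form epoxides from arachidonic acid, 3 of 8 genes were open. In the Cyp4f subfamily, which inactivates leukotrienes and hydroxylates long fatty acids, 5 of 9 were open. The subfamilies Cyp1b, Cyp2r, Cyp2s, Cyp2u, Cyp2w and Cyp4v have 1 member each, and each of these was open. Cyp2e1, which oxidises ethanol, Cyp2f2, a lung enzyme, and the lone Cyp2g, Cyp2t and Cyp4b genes had no promoter peak in either library.

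The strength of the open promoters varied from among the highest to among the lowest values of the files. The deposited peak signal, whose scaling is not given in the sources used here, was used to rank peaks within each library. Over the 16 open members, the strongest promoter peak had a median signal of 73.5 in replicate 1 and 71 in replicate 2. Over all 14594 open protein-coding genes the medians were 108 and 109, with lower quartiles of 84 and 83. The open members therefore had, at their median, less signal than 3 in 4 open genes, in both libraries.

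**Figure D2:**
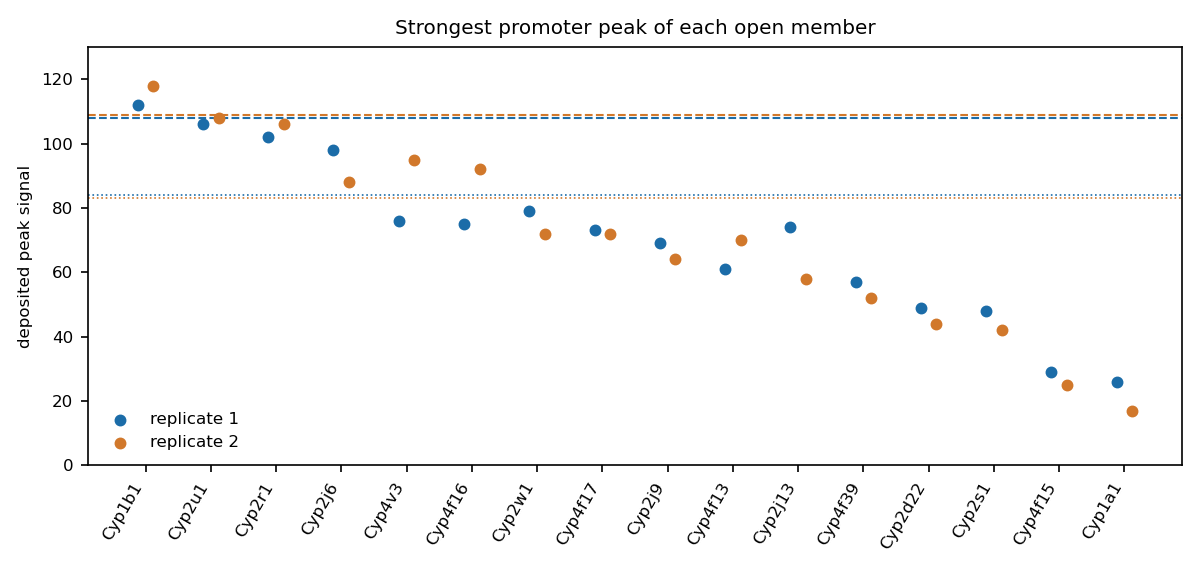
Deposited signal of the strongest shared promoter peak of each of the 16 open members in replicate 1 and replicate 2, ordered by the lower of both values. Dashed lines are the medians (108 and 109) and dotted lines the lower quartiles (84 and 83) of the strongest promoter peak over all open protein-coding genes; 4 members lie above the lower quartile in both libraries, and Cyp4f15 and Cyp1a1 are lowest.

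Cyp1b1 had the strongest promoter peak of the members and the most peaks. This enzyme oxidises oestrogens and retinoids and is an AHR target. Its strongest promoter peak, at chr17:79715696-79715845 (mm10, as for every position here) and centred at -710 bp from the start, with minus meaning upstream, had a signal of 112 in replicate 1 and 118 in replicate 2. Within their libraries these values lay at percentiles 96 and 97.2. A further 3 shared promoter peaks were centred at -80 bp (signals 68 and 60), at 280 bp in exon 1 (51 and 42) and at 990 bp in exon 2 (76 and 68). The start was thus flanked by open sites on both sides in both libraries. Counted alone, replicate 1 had 5 promoter peaks and replicate 2 had 3. Replicate 1 had an unshared peak at 510 bp in intron 1 (signal 53), and the replicate 2 peak in exon 2 is centred just past 1 kb. Of the members, Cyp1b1 also had the most distal shared peaks, 9, with 10 distal peaks in replicate 1 and 14 in replicate 2. This count rests on protein-coding starts: with starts of all annotated transcripts, coding or not, Cyp1b1 had 1 distal shared peak. Not all of this loss was to other genes, because peaks within 1 kb of its own non-coding starts no longer counted as distal. With all its transcript starts, Cyp1b1 had 6 shared promoter peaks instead of 4. Of the 9 distal shared peaks, 2 lay in the gene itself, in intron 2 and exon 2. On the upstream side there were 6, from -13910 to -56840 bp, of which the peak at chr17:79728876-79729065 was the strongest (105 and 80). The last was 15660 bp downstream of the start, with signals of 45 and 25. Among protein-coding genes outside the family, the nearest start was that of Rmdn2 or, for the farthest upstream pair, Atl2.

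The sequence of the strongest Cyp1b1 promoter peak is shown because it holds the core of the CTCF consensus, a word of 12 bases of which 8 are fixed, on the strand of the gene and in capitals (both strands were searched); CTCF is the zinc finger protein that anchors chromatin loops.
Cyp1b1, strongest promoter peak, chr17:79715696-79715845, minus strand: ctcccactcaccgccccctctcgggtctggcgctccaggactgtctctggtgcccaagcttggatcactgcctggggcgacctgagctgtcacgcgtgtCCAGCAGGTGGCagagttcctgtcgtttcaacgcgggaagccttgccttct
The same core stood in 933 of 27725 shared promoter peaks of all genes, or 3.37%, and in 3 of the 23 of members. The other 2 were both promoter peaks of Cyp2w1. A match describes the letters and does not show that the protein was bound.

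Cyp1a1, the classical AHR target that oxidises polycyclic hydrocarbons, was at the weak end. Its single shared promoter peak had a signal of 26 in replicate 1 and 17 in replicate 2, at percentiles 6.4 and 3.94 of their libraries. The overlapping hotspots, the authors' broader regions of enrichment, had -log10 q values of 1.58 and 3.63, where the highest value in the files is 100. The peak was centred at -472 bp from an inner start at position 57697613, within intron 1 as counted from the 5′-most annotated start, from which it lay 9213 bp downstream. Alone, replicate 1 had 2 promoter peaks and replicate 2 had 3, one of which was centred 363 bp from the 5′-most start with a signal of 21. When shared peaks had to overlap by 75 bp, the shared peak was lost, as it was when each library was limited to peaks above its median signal. Its sequence is shown because it holds the AHR word TNGCGTG, read on the opposite strand and in capitals here.
Cyp1a1, promoter peak, chr9:57697016-57697265, plus strand: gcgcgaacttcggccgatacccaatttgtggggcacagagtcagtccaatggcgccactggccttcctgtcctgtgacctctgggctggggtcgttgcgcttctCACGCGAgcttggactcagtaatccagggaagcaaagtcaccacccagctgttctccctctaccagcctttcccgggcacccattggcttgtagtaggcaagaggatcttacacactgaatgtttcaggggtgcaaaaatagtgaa
Searched on both strands, this word occurred in 4.79% of the 773 shared promoter peaks of 250 bp and in 4.59% of all shared promoter peaks. Among the 23 shared promoter peaks of members it occurred in 2, that of Cyp1a1 and one of Cyp2r1. Neither library had a peak of any class for Cyp1a2, the neighbour of Cyp1a1.

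Cyp2r1 and Cyp2u1 were the only other members with a signal above 100 in both libraries. Cyp2r1, which carries out the first hydroxylation of vitamin D, had a promoter peak at chr7:114562936-114563105, centred at -49 bp, with signals of 102 and 106. A neighbouring peak at 249 bp in intron 1 was as strong, with 102 and 100. Cyp2u1, which hydroxylates long-chain fatty acids, had its strongest peak at chr3:131303156-131303305, centred at -7 bp, with signals of 106 and 108. A weaker one at 539 bp in intron 1 had 46 and 48. Cyp2u1 also had 1 body peak in intron 1 (68 and 51) and 4 distal shared peaks. Cyp4v3, a fatty acid hydroxylase whose human counterpart is mutated in a crystalline dystrophy of the retina, had 76 in replicate 1 and 95 in replicate 2 at -35 bp.

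Cyp2r1, Cyp2u1 and Cyp4v3 had the promoters richest in the dinucleotide CpG. The sequence just upstream of the RefSeq start (GRCm38, without annotated UTR bases) is shown for 2 of them and for 2 liver P450 genes without a promoter peak, with each CpG in capitals, because the contrast can be seen by eye.
Cyp2r1, open, chr7:114562973-114563222, minus strand: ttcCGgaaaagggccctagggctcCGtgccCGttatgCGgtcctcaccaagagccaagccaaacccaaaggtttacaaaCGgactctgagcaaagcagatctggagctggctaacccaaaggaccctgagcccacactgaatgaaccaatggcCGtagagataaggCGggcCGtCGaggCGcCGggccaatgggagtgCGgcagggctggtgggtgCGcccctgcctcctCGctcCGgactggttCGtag
Cyp4v3, open, chr8:45333217-45333413, minus strand: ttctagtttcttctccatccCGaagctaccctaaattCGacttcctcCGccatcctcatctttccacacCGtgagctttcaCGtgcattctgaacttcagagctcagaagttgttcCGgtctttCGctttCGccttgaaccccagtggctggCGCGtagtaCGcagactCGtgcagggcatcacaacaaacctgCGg
Cyp2e1, no promoter peak, chr7:140763569-140763738, plus strand: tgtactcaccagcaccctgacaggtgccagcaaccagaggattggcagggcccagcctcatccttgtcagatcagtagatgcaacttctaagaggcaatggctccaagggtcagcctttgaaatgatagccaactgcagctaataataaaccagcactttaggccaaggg
Cyp3a11, no promoter peak, chr5:145879965-145880104, minus strand: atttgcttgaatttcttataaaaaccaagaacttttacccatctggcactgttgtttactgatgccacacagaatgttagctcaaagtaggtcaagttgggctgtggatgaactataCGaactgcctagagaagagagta
There were 16 CpG in 250 bases for Cyp2r1 and 13 in 197 bases for Cyp4v3, against 0 in 170 bases for Cyp2e1 and 1 in 140 bases for Cyp3a11.

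For every gene, the ratio of observed to expected CpG was then taken within 500 bp on either side of the 5′-most annotated start. Its median was 0.299 over the 16 open members, 0.11 over the 65 others and 0.561 over all protein-coding genes. The groups overlapped: open members ran from 0.0635 to 0.758 and the others from 0 to 0.46. Members were mostly CpG-poor, with 60 of 81 under a ratio of 0.2. In that range 3 of 60 members were open, against 12.6% of all genes; from 0.2 to 0.4 it was 6 of 13, against 40.5%; from 0.4 to 0.6 it was 4 of 5, against 84.3%; and from 0.6 on, 3 of 3, against 97.4%. The edges of these ranges were chosen after the values were seen. The ratio describes the 5′-most start only, while a gene counted as open at any of its protein-coding starts. Cyp1a1, in the lowest range, and Cyp2w1, from 0.2 to 0.4, were open only near inner starts, outside the window scored. Had members been open at the rate of all genes in each range, 19.9 would have been open, where 16 were.

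**Figure D3:**
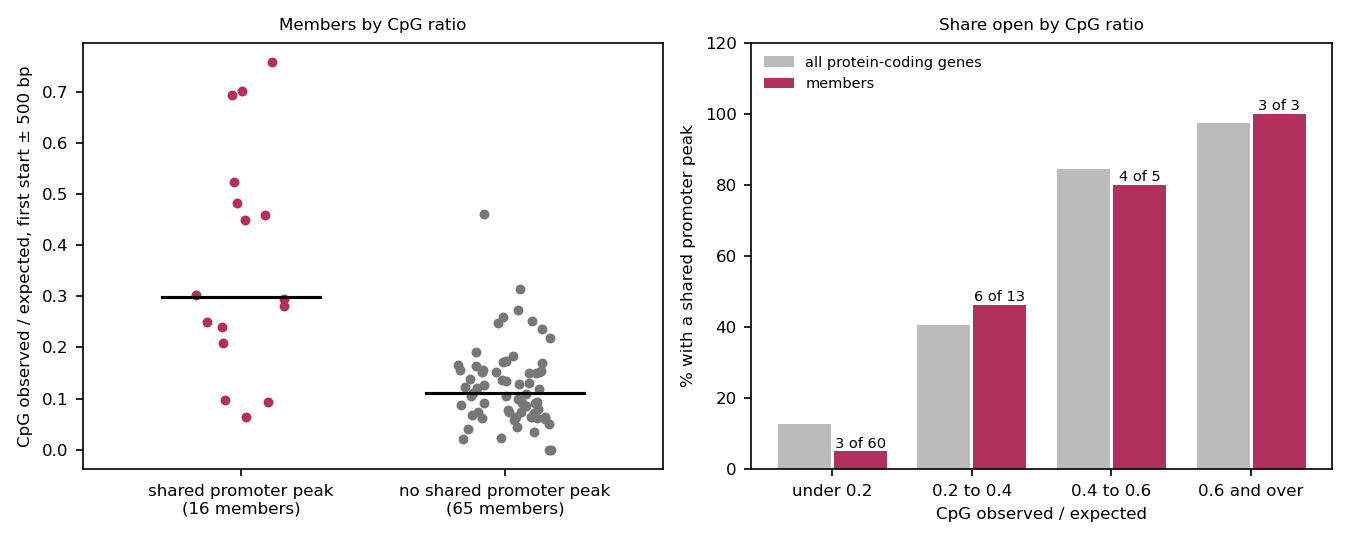
Left, ratio of observed to expected CpG around the 5′-most start for the 16 members with and the 65 members without a shared promoter peak (each point is a member, lines are medians, 0.299 and 0.11). Right, percentage of genes with a shared promoter peak in 4 ranges of the ratio, for all protein-coding genes and for members; both rise from the lowest to the highest range.

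Near-identical gene copies limit what short reads can show. As a measure of this, the share of 32-base words that occur once in the genome was taken in the same windows; neither the read length nor the treatment of reads with several matches is stated in the labels or headers. This share had a median of 100% for open members and 82.6% for the others, and 13 members, none of them open, were under 50%. Of all protein-coding genes, 1551 of 21853 (7.1%) were under 50%, and 121 of these were open. Among the 39 members with at least 90% such words, 15 were open (38.5%, against 75.3% of all genes with such windows). The rate of all genes in each CpG range would give 15.4. That total joins ranges with departures in opposite directions. Under 0.2, 2 of 22 members were open against 17.4% of all genes, and from 0.2 to 0.4, 6 of 9 against 46.4%. From 0.4 to 0.6 it was 4 of 5 against 88.2%, and from 0.6 on, 3 of 3 against 98.3%. The part that multi-copy sequence has in the missing peaks was not tested further.

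Words were counted in the RefSeq promoters, 250 bases before to 50 after the start, and 66 of 81 members were in that table. TATAAA, the TATA box letters, stood in 1 of 13 open members, that of Cyp1a1, and in 28 of 53 closed ones (52.8%), searched on both strands. It stood in 14.3% of all such promoters, in 8.84% of those with a shared peak and in 26.4% of those without. AGGTCA, the core letters of nuclear receptor sites, stood in 0 of 13 open members and in 19 of 53 closed ones (35.8%), against 16.4% of all promoters, 14.6% of open and 20.6% of closed ones. TNGCGTG stood in 0 of 13 open members and 1 of 53 closed ones (1.89%), against 7.03% of all promoters, 9.14% of open and 2.36% of closed ones. These are counts of letters in a window and say nothing on the binding of a factor. Each gene was counted on its own, although most closed members lie in tandem clusters, so related copies of a promoter were counted separately.

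The other open Cyp2 genes had intermediate or low signals. Cyp2j6, at 10 bp in exon 1, was the strongest of them, with 98 in replicate 1 and 88 in replicate 2. Cyp2j13 (74 and 58) and Cyp2j9 (69 and 64), both like Cyp2j6 from the chromosome 4 cluster, were lower. Their 5 neighbours of the same subfamily had no promoter peak in either library. Cyp2w1, known from the fetal gut and from colon tumours, had 79 and 72 at 845 bp from an inner start, in intron 4. Its second peak, at -885 bp from an inner start, had 59 and 41, and with a window of 500 bp Cyp2w1 was no longer open. Cyp2d22, the one open gene of 8 in the Cyp2d subfamily, had 49 and 44 in intron 1. Cyp2s1, an enzyme of epithelia outside the liver, had 48 and 42 in exon 1.

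Another 2 members had promoter peaks that were not shared. Cyp4x1 had one in replicate 2, with a signal of 27 in exon 1, and none in replicate 1. Cyp2ab1 had one in each library, at -947 bp with a signal of 16 in replicate 1 and at 594 bp with 22 in replicate 2, which did not overlap.

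Away from promoters, few members collected many peaks. After Cyp1b1, the most distal shared peaks went to Cyp2s1 with 7 (10 in replicate 1, 7 in replicate 2), Cyp2j5 with 6 (7 and 8), Cyp2b10 with 5 (6 and 8) and Cyp2f2 with 5 (5 and 5). The last 3 of these genes had no promoter peak. All 6 distal peaks of Cyp2j5, a kidney and liver epoxygenase, were upstream, between -18697 and -55227 bp, at the edge of its cluster, and the strongest had signals of 82 and 69. Cyp2s1 lies at the end of its cluster nearest to Axl, a receptor kinase gene, and its strongest distal peak (92 and 104) was 13011 bp downstream of its start and 13.7 kb from that of Axl. Cyp2b10, a target of the receptor Nr1i3 in liver, had 3 distal peaks upstream, the strongest with 82 and 66, and 2 in introns 1 and 8 with 40 and 35 and with 30 and 20. Cyp2f2 had 2 shared peaks in introns 4 and 9 (53 and 41; 72 and 51). Assignment to the nearest start does not show that a site acts on that gene. With starts of all annotated transcripts, coding or not, members had 36 distal shared peaks instead of 77. A peak dropped out when another gene's start was nearer, or when any start lay within 1 kb, the member's own non-coding starts included. By that count the order of these genes turned, with 6 for Cyp2j5, 2 for Cyp2b10, 2 for Cyp2f2, 1 for Cyp1b1 and 0 for Cyp2s1. The new order therefore does not show how many peaks lie nearer to other genes.

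Most members, 69 of 81, sit in 7 tandem clusters, taken as 3 or more members less than 500 kb apart. Of these 69, 10 were open (14.5%), against 6 of the 12 that stand apart (50%). Both shares were below the 66.5% of all protein-coding genes. Over the autosomes and chromosome X there were 44.98 shared peaks per Mb, with 66.21 in replicate 1 and 63.53 in replicate 2. Over the 7 clusters there were 11.48, with 17.03 and 21.11. The Cyp3a cluster on chromosome 5, with 8 genes in 0.768 Mb, held 0 shared peaks and 1 peak in each library. The Cyp2c cluster on chromosome 19, with 14 genes in 1.18 Mb, held 1 shared peak, or 0.847 per Mb. The Cyp4a/Cyp4b/Cyp4x cluster on chromosome 4 had 3.69 shared peaks per Mb, the Cyp2j cluster 9.43, the Cyp2d cluster on chromosome 15 9.44 and the chromosome 7 cluster, with Cyp2a, Cyp2b, Cyp2f, Cyp2g, Cyp2s and Cyp2t genes, 14.75.

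The Cyp4f cluster on chromosome 17 differed from these 6, with 58.62 shared peaks per Mb, 72.77 in replicate 1 and 80.86 in replicate 2. Without it, the clusters had 6.73 shared peaks per Mb and 5 of 61 members open (8.2%). Single-copy words made up 83.9% of the Cyp4f cluster and 83.6% of words sampled along the autosomes and chromosome X. In the other clusters they made up from 51.3% (Cyp3a) to 73.6% (Cyp2j), so the clusters with the fewest peaks were also rich in repeated sequence.

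**Figure D4:**
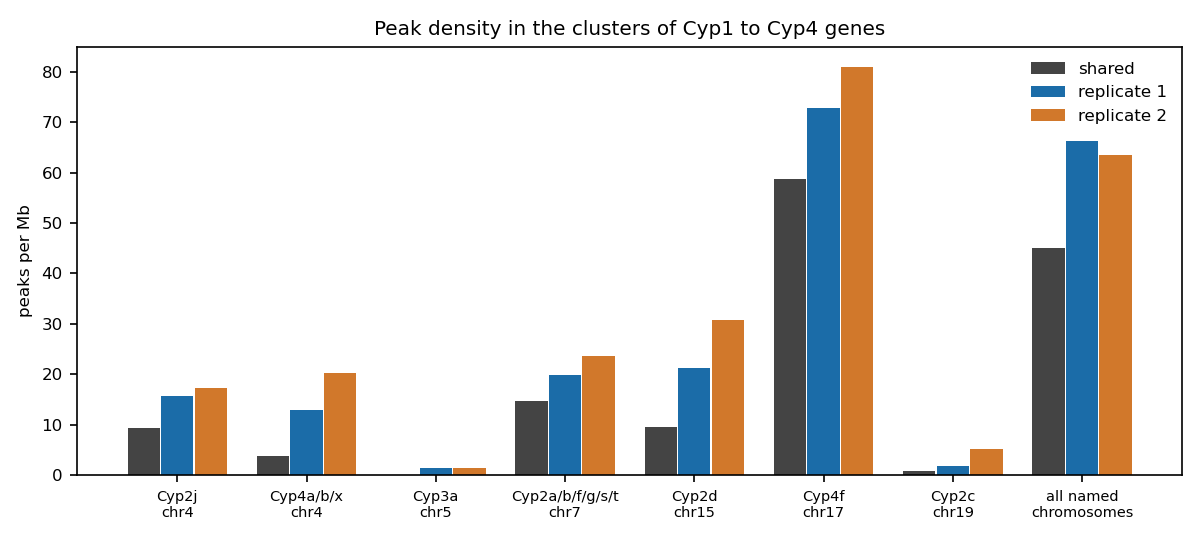
Peaks per Mb in the 7 tandem clusters of members and over the autosomes and chromosome X (labelled all named chromosomes), for shared peaks and for replicate 1 and replicate 2. The Cyp4f cluster, at 58.62 shared peaks per Mb, is the only one above the 44.98 of the autosomes and X, and the Cyp3a cluster holds no shared peak.

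Within the Cyp4f subfamily, open promoters were those of Cyp4f16 (75 in replicate 1 and 92 in replicate 2), Cyp4f17 (73 and 72), Cyp4f13 (61 and 70), Cyp4f39 (57 and 52) and Cyp4f15 (29 and 25). Cyp4f39, which makes the very long hydroxylated fatty acids of the skin barrier, also had 3 shared body peaks, the most of any member. Cyp4f15 was the weakest and was not open when each library was limited to peaks above its median signal. Cyp4f14, Cyp4f18, Cyp4f37 and Cyp4f40 had no promoter peak in either library. All 9 nevertheless had a shared body peak, whereas 8 of the other 72 members had one.

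Most of these body peaks were in the last exon. A shared peak in the last exon, over 1 kb from the gene's starts, was present in 8 of 9 Cyp4f genes (all but Cyp4f40) and in 1 of 72 other members, Cyp3a13 (signals 27 and 20). Over all genes the share was 7.84%, or 1598 of 20385, and over all members 9 of 81. This pattern was chosen after the values were seen and is a description. The signals were 98 in replicate 1 and 89 in replicate 2 for Cyp4f17, 87 and 89 for Cyp4f13, 86 and 86 for Cyp4f37, and 84 and 78 for Cyp4f16. They were 61 and 43 for Cyp4f14, 59 and 60 for Cyp4f18, 58 and 48 for Cyp4f39, and 26 and 23 for Cyp4f15. Cyp4f37 had a second last-exon peak, the weakest of the 9, with 18 and 13. Cyp4f18 is on chromosome 8, away from the cluster, so the pattern was not limited to 1 locus. Its last-exon peak also lay inside the span of another protein-coding gene, Zfp961, whose nearest start was 37.53 kb away. Over all 9 Cyp4f genes, Cyp4f40 included, the last exon had a median length of 612 bp, against 1285 bp over all protein-coding genes. Of the Cyp4f genes with a last-exon peak, Cyp4f17 alone had a last exon longer than the latter. Single-copy words made up between 67.6% (Cyp4f13) and 100% of these peaks, the 100% being reached by Cyp4f14, Cyp4f18 and Cyp4f39 among others.

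**Figure D5:**
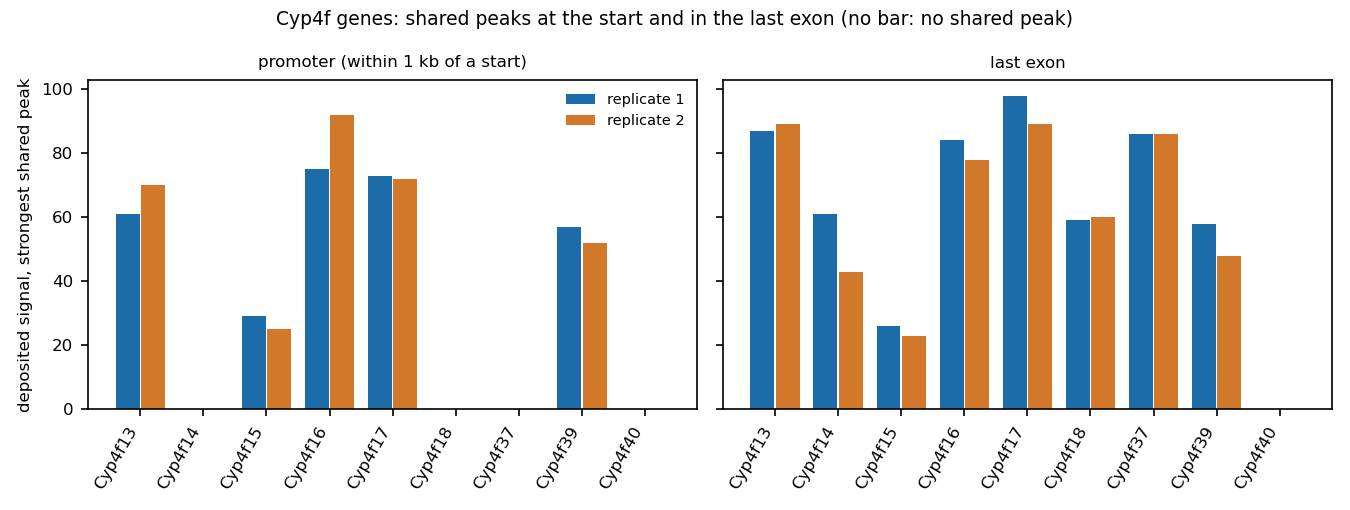
Deposited signal of the strongest shared peak within 1 kb of a start (left) and in the last exon (right) of the 9 Cyp4f genes, in replicate 1 and replicate 2; no bar means no shared peak. Cyp4f14, Cyp4f18 and Cyp4f37 have a last-exon peak without a promoter peak, and Cyp4f40 has neither.

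Of the 9 last-exon peaks, 6 covered at least some coding sequence, and those of Cyp4f14 and Cyp4f17 and the weaker one of Cyp4f37 covered none. Their CpG content was a median of 5.16 per 100 bases over 9 peaks, from 1.33 to 9.41, against 0.847 over the other 68 distal shared peaks of members and 1.33 over all distal shared peaks. The coding part of the peak is shown for a gene of the cluster and for its relative on chromosome 8, with each CpG in capitals.
Cyp4f13, exon 13, chr17:32924780-32924925, minus strand: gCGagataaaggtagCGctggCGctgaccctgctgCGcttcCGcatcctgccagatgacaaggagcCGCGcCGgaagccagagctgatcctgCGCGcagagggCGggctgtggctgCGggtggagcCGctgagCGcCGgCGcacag
Cyp4f18, exon 13, chr8:71988563-71988705, minus strand: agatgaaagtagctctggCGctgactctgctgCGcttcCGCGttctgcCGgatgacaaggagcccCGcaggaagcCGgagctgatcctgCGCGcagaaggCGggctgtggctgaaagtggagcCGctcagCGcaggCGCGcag
There were 16 CpG in 146 bases and 14 in 143 bases. Aligned without gaps, 126 of 143 bases were identical (88.1%), so both the peak and the CpG-rich coding end recurred in copies on different chromosomes.

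The CTCF core stood in the last-exon peaks of Cyp4f14, Cyp4f15, Cyp4f16, Cyp4f17 and Cyp4f37, each time on the strand of the gene. The sites are shown, with the core in capitals, because 5 related genes carry it on the same strand.
Cyp4f14, chr17:32905388-32905417, minus strand: taccgagagCCAGCAGGGGGCgctgtgaaa
Cyp4f15, chr17:32703027-32703056, plus strand: cgcagaataCCAGTAGGGGGCgctggagga
Cyp4f16, chr17:32551292-32551321, plus strand: cacccagagCCATCAGAGGGCgctgcagga
Cyp4f37, chr17:32635228-32635257, plus strand: cacagaacgCCAGCAGGGGGCgctagaggg
The site of Cyp4f17, at chr17:32528953-32528982, has the same 30 bases as that of Cyp4f16. The last-exon peaks of Cyp4f13, Cyp4f18 and Cyp4f39 had no such core. Over members as a whole, 20 of 77 distal shared peaks held it (26%), against 12.3% of 90766 shared peaks over 1 kb from every start. With the Cyp4f genes set aside it was 14 of 60 (23.3%), and for peaks assigned to Cyp4f genes 6 of 17 (35.3%).

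The genes that serve or switch on P450 enzymes were more often open than the P450 genes themselves. All 6 listed partners that pass electrons to P450 enzymes, among them the reductase Por with 6 shared promoter peaks, had a shared promoter peak. So did 16 of 23 receptors and factors known to act on P450 genes (69.6%, near the 66.5% of all genes), including Ahr, Arnt, Ahrr and Ppara. Among those without were the nuclear receptors Nr1h4, Nr1i2 and Nr1i3, known from liver and gut. Among P450 genes of other families, which make or break down steroids, bile acids and retinoic acid, 8 of 18 were open (44.4%). Of other families that process foreign compounds, 3 of 21 Ugt genes (14.3%) and 3 of 21 Sult genes (14.3%) were open. Among Gst genes it was 16 of 22 (72.7%), near the 66.5% of all genes.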

How the data were processed

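Per the labels and the deposited read-me texts, DNase-seq libraries of 2 limb replicates were mapped to mm10 and peaks and hotspots were derived for each library from filtered alignments. For aligner, peak caller and parameters the entry is: not given in the sources used here. In the authors' deposited files, each peak has a signal and each hotspot a -log10 q value that stops at 100. No file holds counts, so depth is unknown and no interval or count test was made. Shared peaks joined peaks of both libraries overlapping by at least 1 bp, on chromosomes 1 to 19, X and Y. Centres were set against starts of protein-coding transcripts of GENCODE M21 with NumPy and pandas. The rules for overlap, distance to the nearest start, and promoter and body counts were tested on simulated regions. The distal count and the joining of peaks were not. Named genes were all members with a promoter peak in either library, and the 5 with the most distal and the most body shared peaks (Cyp4f39, Cyp1b1, Cyp2b10, Cyp2f2 and Cyp4f18 for body peaks). Percentiles rank a peak among those of its own library. Promoter sequences are RefSeq's (GRCm38), others the GRCm38 genome. Members, gene lists and the patterns followed were chosen with earlier results of these data known.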

Additional observations from a re-analysis of the deposited data

How the results depend on the processing

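No paired analysis was possible because the 2 libraries form 1 group. With peaks of a single library in place of shared ones (1 replicate left out), body peaks of members numbered 37 to 43 instead of 24, distal peaks 121 to 132 instead of 77, and peaks in the clusters 17 to 21.1 per Mb instead of 11.5. Limiting each library to peaks above its median signal left 14 body and 45 distal shared peaks. Counting starts of all annotated transcripts, coding or not, left 36 distal shared peaks. Part of that loss was of peaks within 1 kb of a member's own non-coding starts. Members with a shared promoter peak numbered 14 to 18 under every alternative run. Cyp2b10 and Cyp4f37 were added with starts of all transcripts, and Cyp1a1 and Cyp2w1 were lost with only the 5′-most start. Hotspots in place of peaks gave 16. Of 227 alternative values for the named members, 181 stayed within 1.5 times the main count and 46 did not; most of these counts are small. Depth is unknown, so an absent peak does not show closed chromatin.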
